A study of Mus musculus with 12 samples.

Results

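This comparison asked how the enrichment of each messenger RNA by ribosome pulldown differed between 2 transgenic mouse lines. Translating ribosome affinity purification (TRAP) captures ribosomes that carry a green fluorescent protein (EGFP) fused to the ribosomal protein Rpl10a, together with the messages bound to them. In the Chat line, Tg(Chat-EGFP/Rpl10a)DW167Htz, regulatory sequence of Chat drives the tagged protein, and in the Snap25 line, Tg(Snap25-EGFP/Rpl10a)JD362Jdd, that of Snap25 does. The submitters describe the former as a profile of motor neurons and the latter as a profile of all neurons. All animals carried one of the 2 transgenes, were at postnatal day 21 and gave spinal cord, and no untagged mouse was included. Each line had 3 libraries of input RNA taken before the immunopurification (PreIP) and 3 of pulldown RNA (TRAP), so the comparison used 12 of the 12 libraries. Members are all 15905 genes that passed a filter on low counts, of 40912 gene IDs in the table. Whether the 3 replicates came from separate animals or from pooled tissue is not given in the sources used here, so the p-values measure the spread between these libraries, which may be technical.

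The measure was the log2 fold change from input to pulldown in the Chat line minus that in the Snap25 line. It is called the difference in enrichment here, is positive where the Chat line enriched a message more, and is given with its standard error (SE) from the fit. The input holds RNA of all cells of the cord. Messages of cells that carry the tag thus tend to rise from input to pulldown, and messages of cells without it tend to fall. Single genes need not follow: of 25 genes of neurons in general, 4 were called as a rise and 5 as a fall in the Snap25 line. In bulk RNA of this kind, fewer cells of a type and less RNA per cell cannot be told apart. Spinal motor neurons use acetylcholine, which choline acetyltransferase (Chat) makes, and send large axons rich in neurofilaments to muscle. Other cholinergic cells of the cord include preganglionic autonomic neurons and a small set of interneurons. The rest of the spinal neurons are mostly interneurons, which signal with GABA and glycine or with glutamate, and Snap25, a protein of synaptic vesicle fusion, is common to neurons.

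Total counts ran from 10149346 to 20521699 per library. Mitochondrial ribosomal RNA took 23.2 to 40.7% of the counts in the 6 inputs, 6.67% in TRAP_Chat replicate 1 and 0.209 to 0.680% in the other 5 pulldowns. The biological coefficient of variation among 3 replicates was 0.205 for the Chat inputs, 0.267 for the Snap25 inputs, 0.350 for the Chat pulldowns and 0.387 for the Snap25 pulldowns. Oligodendrocyte markers, which a neuronal pulldown should lose, kept 29.2, 11 and 15.8% of their mean input level in the Chat pulldowns 1, 2 and 3, and 12.1, 9.20 and 28.0% in the Snap25 pulldowns 1, 2 and 3. TRAP_Chat replicate 1 and TRAP_Snap25 replicate 3 thus stood apart from the other pulldowns of their lines, and counts of calls without each are given over all genes and for the gene lists.

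Enrichment differed between the lines for 166 genes (1.04% of those tested) in edgeR's quasi-likelihood test at an adjusted p under 0.05. It was higher in the Chat line for 96 genes (0.604%) and lower for 70 (0.44%). Among called genes of at least 5 CPM on average, with predicted genes left out, the 12 with the largest positive difference included Kcnj14, an inward rectifier potassium channel, Uts2b, a precursor of a urotensin 2 related peptide, and Palm3, a membrane protein of the paralemmin family. By the same limits, the 12 with the largest negative difference included Npy, the precursor of neuropeptide Y, Slc32a1, the vesicular transporter for GABA and glycine, and Hapln1, a link protein of the matrix around neurons. At an unadjusted p under 0.05, 968 genes were higher and 865 lower, and the median difference over all tested genes was 0.03. The SE of the difference had a median of 0.54 over genes, against 0.39 for a pulldown compared with its input, since it adds the errors of 4 groups.

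**Figure D1:**
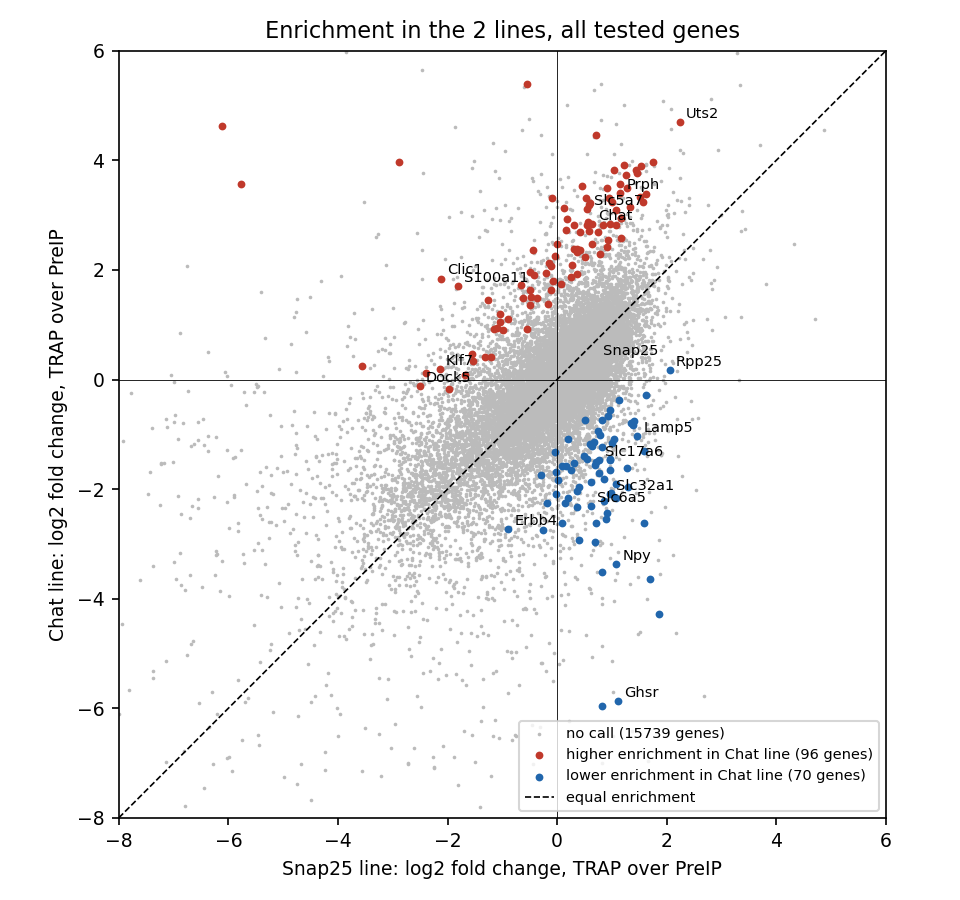
Log2 fold change from input (PreIP) to pulldown (TRAP) in the Snap25 line on the horizontal axis and in the Chat line on the vertical axis, 1 point per tested gene, with 15 genes without a call outside the axes. The 96 red genes lie above the dashed line of equal enrichment and the 70 blue genes below it.

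All 166 were also called the same way between the 2 sets of pulldowns, where 632 genes (3.97%) were higher and 441 (2.77%) lower in the Chat line. The pulldowns enter both contrasts, so this is a description. No gene differed between the inputs of the 2 lines in the same edgeR fit at an adjusted p under 0.05, with 133 at an unadjusted p under 0.05, and no other tool was run on the inputs. The input difference was within 0.5 on the log2 scale for 150 of the 166 genes and had an unadjusted p under 0.05 for 7. For all 96 and all 70 genes, the 3 Chat pulldowns and the 3 Snap25 pulldowns did not overlap in log2 enrichment over the mean input of their line. That was so for 1796 tested genes (11.3%) in the higher and 1689 (10.6%) in the lower direction.

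The numbers of calls depended on single libraries, the inputs most of all. Leaving out PreIP_Chat replicate 1, 2 or 3 gave 48, 26 or 46 higher and 40, 26 or 46 lower genes, and leaving out PreIP_Snap25 replicate 1, 2 or 3 gave 53, 72 or 54 higher and 44, 45 or 38 lower genes. Without TRAP_Chat replicate 1 there were 85 higher and 81 lower genes, of which 72 and 54 were among the 96 and the 70, and those shared numbers were 73 and 44 without TRAP_Chat replicate 2 and 66 and 50 without TRAP_Chat replicate 3. Without TRAP_Snap25 replicate 3 there were 152 higher and 97 lower genes, with 89 and 67 in common. All 166 genes kept their direction in each of these fits, and 51 kept their call in all 12 fits without 1 library.

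Among 6 tested genes of acetylcholine handling, 3 had a higher enrichment in the Chat line and none a lower one. Over all tested genes, 0.604% were called higher and 0.44% lower, which are the shares to set beside the counts of each list. The median difference of the list was 1.88, against 0.03 over all tested genes. Slc5a7, the choline transporter that supplies the synthesis of acetylcholine, stood at 27.2, 40.4 and 33.5 CPM (counts scaled to a common library size) in the Chat inputs and at 201, 428 and 245 in the Chat pulldowns. In the Snap25 line it stood at 34.3, 27.3 and 27.3 CPM in the inputs and 49.1, 38.1 and 43.1 in the pulldowns. Every Chat pulldown was thus above each of the other 9 libraries, and the Snap25 pulldowns were only slightly above their inputs. The difference in enrichment was 2.56 ± 0.39, a 5.90-fold greater enrichment (adjusted p = 0.00671), and it kept its call without any 1 library.

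Chat itself had 30.2, 20.3 and 16.1 CPM in the Chat inputs and 106, 185 and 187 in the Chat pulldowns. Its Snap25 values were 19.6, 14.05 and 14.7 CPM in the inputs and 19.98, 26.1 and 28.9 in the pulldowns. It rose 7.18-fold in the Chat line, had a ratio of 1.55 in the Snap25 line that was not called (adjusted p = 0.130), and showed a difference of 2.21 ± 0.41 (adjusted p = 0.013). TRAP_Chat replicate 1 was the lowest of its group, yet above each of the other 9 libraries, and the call was lost without PreIP_Chat replicate 2 (adjusted p = 0.0589). Prima1, which anchors acetylcholinesterase in the membrane, rose 2.85-fold in the Chat line and differed by 1.98 ± 0.35 between the lines (adjusted p = 0.01; also lost without PreIP_Chat replicate 2). Ache, the esterase that ends the signal, was measured at 112, 186 and 171 CPM in the Chat and 81.8, 72.4 and 196 CPM in the Snap25 pulldowns. Those groups overlapped, and its difference in enrichment was 0.13 ± 0.48 (adjusted p = 0.963).

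**Figure D2:**
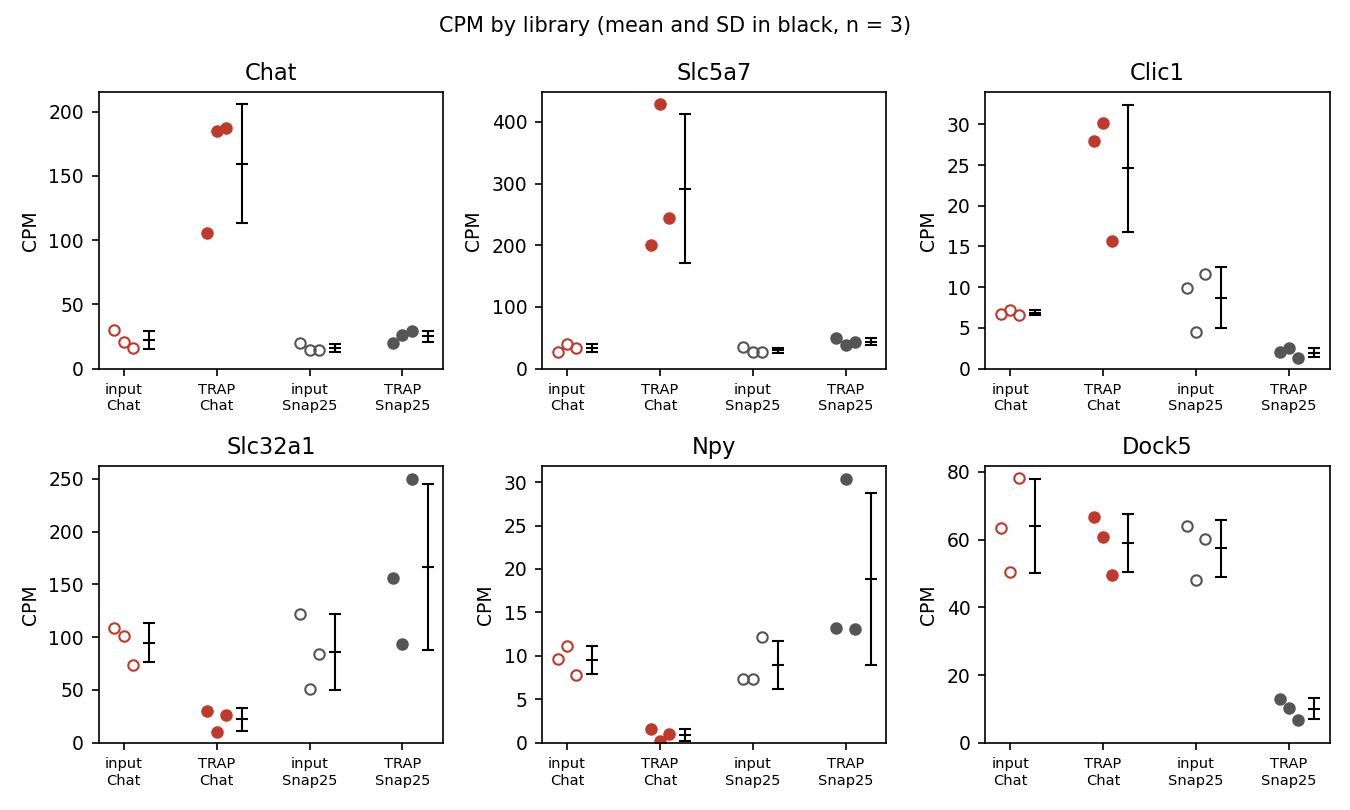
CPM of 6 genes in each of the 12 libraries (open circles inputs, filled circles pulldowns, red Chat line, grey Snap25 line), with the group mean and SD of 3 libraries in black. Chat, Slc5a7 and Clic1 are highest in the Chat pulldowns, Slc32a1 and Npy are lowest there, and Dock5 is lowest in the Snap25 pulldowns.

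Some genes at the Chat locus stood apart between the lines in the inputs too, although no input difference was called. Chat itself did not: the inputs given above overlapped between the lines, at a log2 difference of 0.46 (unadjusted p = 0.130 in the edgeR fit). Slc18a3, the vesicular acetylcholine transporter, lies inside the Chat gene in the GENCODE M21 annotation. It measured 181, 167 and 202 CPM in the Chat inputs against 65.1, 22.9 and 64.00 in the Snap25 inputs, a log2 difference of 1.86, and 912, 1660.03 and 1552 against 74.2, 35.4 and 222 CPM in the pulldowns. Pulldowns thus differed by 3.64, which was called, while the difference in enrichment was 1.78 ± 0.70 and was not (adjusted p = 0.312). Ercc6, a DNA repair gene next to Chat, showed the same order, with inputs apart by 1.34, pulldowns apart by 1.97 and a difference in enrichment of 0.63 ± 0.35 (adjusted p = 0.532). The predicted gene Gm2990, an antisense neighbour in that annotation, was called in enrichment at 2.78 ± 0.51 (adjusted p = 0.0111), with its inputs apart by 1.596. For the inputs, the edgeR fit gave unadjusted p = 0.00206 for Slc18a3, 5.15e-05 for Ercc6 and 0.000383 for Gm2990. The adjusted p for the inputs of Ercc6 was 0.819. Whether counting used the strand is not given in the sources used here, so reads of genes that overlap at this locus cannot be told apart.

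Promoters are shown for 4 of the genes with a higher enrichment in the Chat line, chosen after their values were seen because each holds 1 of the 3 short motifs searched for. The stretches are the 200 bases before the start of the gene from RefSeq (GRCm38.p6), written 5′ to 3′ on the gene's strand, with the motif match in capitals. Slc5a7 lies at chr17:54299035-54299234 on the minus strand, Cartpt at chr13:99900684-99900883 on the minus strand, Prph at chr15:99054974-99055173 on the plus strand and Rgs4 at chr1:169747643-169747842 on the minus strand.
Slc5a7: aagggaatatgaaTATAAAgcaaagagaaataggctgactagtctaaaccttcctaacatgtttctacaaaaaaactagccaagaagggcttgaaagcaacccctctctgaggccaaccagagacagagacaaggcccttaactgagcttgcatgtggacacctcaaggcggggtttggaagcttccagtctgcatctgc
Cartpt: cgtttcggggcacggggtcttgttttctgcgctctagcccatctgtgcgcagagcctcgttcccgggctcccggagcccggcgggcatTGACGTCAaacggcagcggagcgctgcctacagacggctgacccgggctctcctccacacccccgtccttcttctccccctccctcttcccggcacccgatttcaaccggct
Prph: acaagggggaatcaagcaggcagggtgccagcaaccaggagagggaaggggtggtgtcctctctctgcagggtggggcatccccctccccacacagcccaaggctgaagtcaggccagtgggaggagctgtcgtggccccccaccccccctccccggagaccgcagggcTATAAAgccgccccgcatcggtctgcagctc
Rgs4: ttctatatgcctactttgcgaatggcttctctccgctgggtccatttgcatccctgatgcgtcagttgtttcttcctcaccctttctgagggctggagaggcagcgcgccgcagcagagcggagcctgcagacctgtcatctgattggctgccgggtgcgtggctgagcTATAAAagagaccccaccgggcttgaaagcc
The TATA box letters TATAAA begin 31 bases before the start in Prph and in Rgs4, the usual place of such a box, and 187 bases before it in Slc5a7. Cartpt holds the cyclic AMP response element letters TGACGTCA 112 bases before the start. In windows from 250 bases before to 50 after the start, searched on both strands, TATAAA stood in 13.3% of 60 promoters of genes with a higher enrichment, 10.3% of 39 with a lower one and 6.98% of the 9065 promoters of tested genes. TGACGTCA stood in 3.33% of those 60, in 0% of those 39 and in 3.29% of all, and the homeodomain letters TAATTA in 1.67, 5.13 and 2.35%. No motif is contained in another, and a match is a description of sequence.

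Precursors of neuropeptides, which neurons secrete beside their main transmitter, gave 7 calls among 22 tested, against 1.04% of all tested genes. In the Chat line 6 had a higher and 1 a lower enrichment, although the median over the list was -0.18. Uts2, the urotensin 2 precursor, measured 6.53, 4.82 and 3.12 CPM in the Chat inputs and 129.6, 175 and 72.1 in the Chat pulldowns, and 5.22, 2.33 and 6.52 and 21.2, 28.7 and 16.5 in the Snap25 inputs and pulldowns. Both lines enriched it, 26.04-fold and 4.72-fold, and the enrichments differed by 2.46 ± 0.56 (adjusted p = 0.0424). Uts2b had 27.5, 23.6 and 28.3 CPM in the Chat pulldowns against 6.54, 4.47 and 4.27 in the Snap25 pulldowns and at most 2.80 in any input, and differed by 2.69 ± 0.50 (adjusted p = 0.013). The lines did not overlap for either peptide in the pulldowns, nor in enrichment, as for all 96 genes with a higher call and 11.3% of tested genes.

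Calca and Calcb, which encode calcitonin gene related peptides that motor neurons store, moved together. Calca reached 260.5, 262 and 317 CPM in the Chat pulldowns from 23.1, 20.2 and 18.3 in the inputs, and 51.1, 60.2 and 90.4 CPM in the Snap25 pulldowns from 15.6, 17.4 and 40.4. The difference was 2.31 ± 0.46 for Calca (adjusted p = 0.0185) and 2.37 ± 0.54 for Calcb (adjusted p = 0.0425). They are similar genes, and how reads matching both were counted is not given in the sources used here. Cartpt, the precursor of the CART peptides, rose 15.6-fold in the Chat and 3.37-fold in the Snap25 line, and Nts, the neurotensin precursor, rose 4.34-fold in the Chat line. Their differences were 2.22 ± 0.45 (adjusted p = 0.0211) and 2.27 ± 0.51 (adjusted p = 0.0401). Penk, the enkephalin precursor, was not called, at -1.13 ± 0.33 (adjusted p = 0.118). Calls of this list were among the less stable ones: of the 12 fits without 1 library, Uts2b kept its call in 11, Calca in 9, Cartpt in 7, and Uts2, Calcb and Nts in 3.

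Of the 22 tested precursors, 13 had a negative and 9 a positive difference. In the edgeR fit, 7 were higher and 5 lower at an unadjusted p under 0.05, against 968 and 865 of all 15905 genes. DESeq2 called 6 higher and 4 lower, and voom 5 and 1. Npy was the only one called lower by edgeR with all 12 libraries. It fell from 9.65, 11.1 and 7.83 CPM in the Chat inputs to 1.54, 0.151 and 0.989 in the pulldowns, and measured 7.37, 7.38 and 12.1 CPM in the Snap25 inputs and 13.2, 30.3 and 13.1 in the Snap25 pulldowns. Chat pulldowns were thus the lowest of the 12 libraries, and the difference of -4.45 ± 0.74 corresponds to a 21.9-fold lower enrichment (adjusted p = 0.00855), called in all 12 fits without 1 library.

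Motor neuron subtype markers and the axonal cytoskeleton followed. Among 14 markers of fast, slow and gamma motor neurons, 2 had a higher enrichment (0.604% of tested genes) and none a lower one. Of the 14, 13 were positive, and the median was 1.09. Chodl, a marker of fast motor neurons, measured 7.57, 11.2 and 8.73 CPM in the Chat inputs and 106, 108 and 112 in the pulldowns, against 11.2, 6.02 and 11.5 and 24.8, 23.7 and 14.7 in the Snap25 line. Its 3 Chat pulldowns were nearly equal and far from all others, and the difference was 2.42 ± 0.41 (adjusted p = 0.00855). Stk32a, a kinase in the same list, differed by 2.50 ± 0.40 (adjusted p = 0.00711), and both kept their calls in all 12 fits without 1 library.

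Of 20 cytoskeletal genes, 4 had a higher enrichment in the Chat line (0.604% of tested genes), none a lower one, and the median was 0.50. Peripherin (Prph), an intermediate filament of neurons with axons outside the central nervous system, rose from 58.1, 61.96 and 61.9 CPM in the Chat inputs to 588, 683 and 662 in the pulldowns. In the Snap25 line it measured 61.5, 48.04 and 69.6 and 90.9, 127 and 179 CPM. It differed by 2.26 ± 0.35 (adjusted p = 0.00671) and kept its call without any 1 library. The medium and light neurofilament chains, Nefm and Nefl, differed by 1.87 ± 0.36 (adjusted p = 0.0152) and 1.61 ± 0.36 (adjusted p = 0.0424), with calls in 10 and 3 of those 12 fits. The heavy chain Nefh differed by 1.40 ± 0.34 and missed the threshold (adjusted p = 0.0581). Its Chat pulldowns, at 2013, 2303 and 2008 CPM, did not overlap the Snap25 pulldowns, at 747, 951 and 955 CPM. In enrichment the lines did not overlap for Nefh either, as for 11.3% of tested genes in that direction. Sncg, gamma synuclein, differed by 1.82 ± 0.36 (adjusted p = 0.0184).

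Transcription factors that define motor neurons went both ways. Of 11 tested, 8 had a positive and 3 a negative difference, from -1.48 to 3.08 with a median of 0.77, and on their own 5 rose and 2 fell in the Chat line and 2 rose and 3 fell in the Snap25 line. None was called by edgeR or by limma voom. At an unadjusted p under 0.05 in edgeR, 4 were higher, as were 968 of all 15905 genes. DESeq2 called 3 higher, and 1 was called higher by weighted voom, with the replicate block, without TRAP_Chat replicate 1 and without TRAP_Snap25 replicate 3. That gene was Mnx1 in the first 2 and Lhx4 in the last 2 of these fits. Mnx1, which specifies motor neurons in the embryo, measured 24.97, 22.1 and 28.01 CPM in the Chat pulldowns and 5.66, 1.95 and 2.44 in the Snap25 pulldowns, and differed by 2.63 ± 0.62 (adjusted p = 0.0523). Isl1, another such factor, stood at 12.7, 13.8 and 14.3 and 1.91, 2.07 and 0.407 CPM and differed by 3.08 ± 0.78 (adjusted p = 0.0685). Pulldowns of the 2 lines did not overlap for either factor, and their inputs were at most 2.21 CPM. In enrichment the lines did not overlap either, as for 11.3% of tested genes in that direction. Lhx4, a LIM homeodomain factor, measured 13.4, 22.2 and 36.1 CPM in the Chat and 3.01, 3.68 and 7.93 CPM in the Snap25 pulldowns and differed by 2.21 ± 0.60 (adjusted p = 0.0908). Foxp1, a factor of limb motor neurons, differed by -0.35 ± 0.48, Onecut2 by 0.97 ± 0.75 and Etv4 by -1.48 ± 0.83 (adjusted p = 0.865, 0.708 and 0.541). Onecut2 fell in the Snap25 line, and Etv4 fell in both lines. None of 14 neurotrophic factor receptors was called by edgeR or voom (6 higher and 1 lower at an unadjusted p under 0.05, 1 higher by DESeq2). Ret, the signalling subunit for GDNF family ligands, differed by 1.10 ± 0.39 (adjusted p = 0.246), and it rose 5.64-fold in the Chat and 2.63-fold in the Snap25 line.

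**Figure D3:**
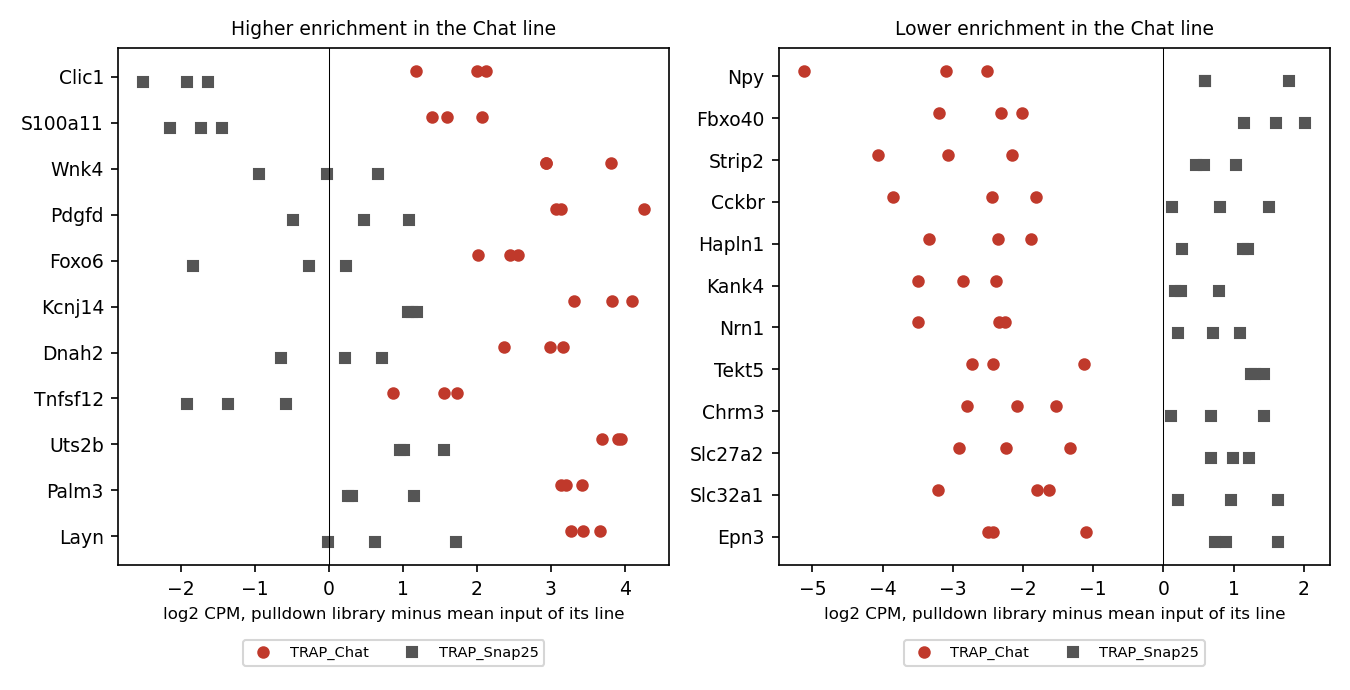
Log2 CPM of each pulldown library minus the mean log2 CPM of the 3 inputs of its line, for 11 of the 12 named genes with the largest positive difference (left) and the 12 with the largest negative difference (right) in enrichment. Circles are the 3 Chat pulldowns and squares the 3 Snap25 pulldowns. The 2 lines do not overlap for any of the 23 genes, which the rule for naming them required.

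With predicted genes left out, the largest positive differences among called genes of at least 5 CPM on average belonged to Clic1, a chloride channel family protein, and S100a11, a calcium binding protein. Clic1 rose from 6.72, 7.25 and 6.61 CPM in the Chat inputs to 27.9, 30.2 and 15.7 in the Chat pulldowns, and fell from 9.95, 4.53 and 11.7 in the Snap25 inputs to 2.06, 2.51 and 1.32 in the Snap25 pulldowns. The lines moved in opposite directions, 3.58-fold up and 4.36-fold down, which gave a difference of 3.97 ± 0.57 (adjusted p = 0.00551). S100a11 had the same pattern, at 29.7, 18.5 and 21.4 CPM in the Chat and 3.23, 2.62 and 1.93 CPM in the Snap25 pulldowns, and differed by 3.52 ± 0.50 (adjusted p = 0.00551). Both kept their calls in all 12 fits without 1 library.

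Kcnj14 rose from 3.66, 3.99 and 4.34 CPM in the Chat inputs to 58.4, 40.7 and 70.2, and measured 6.87, 2.91 and 7.63 and 11.4, 12.4 and 11.8 in the Snap25 inputs and pulldowns. Palm3 reached 181, 173 and 211 CPM in the Chat and 28.6, 27.6 and 51.4 CPM in the Snap25 pulldowns. Both kept their calls in all 12 fits, with differences of 2.79 ± 0.47 and 2.63 ± 0.42 (adjusted p = 0.00869 and 0.00724). Wnk4, a kinase that regulates chloride transport, and Pdgfd, a platelet derived growth factor, differed by 3.40 ± 0.64 and 3.08 ± 0.65. Layn, a hyaluronan receptor, Foxo6, a forkhead transcription factor, Tnfsf12, a TNF family ligand, and Dnah2, an axonemal dynein, differed by 2.60 ± 0.56, 2.79 ± 0.63, 2.71 ± 0.61 and 2.75 ± 0.61. Those 6 genes were called less firmly, in 10 (Wnk4), 7 (Pdgfd), 4 (Foxo6), 3 (Layn) and 2 (Tnfsf12, Dnah2) of the 12 fits without 1 library.

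More abundant genes with calls in all 12 such fits are named here after their values were seen. Fgf1, a growth factor, measured 374, 334 and 412 CPM in the Chat inputs, 1354, 2033 and 2477 in the Chat pulldowns and 505, 422 and 426 in the Snap25 pulldowns, a difference of 2.02 ± 0.35 (adjusted p = 0.00968). Cd24a, a cell surface glycoprotein, differed by 2.23 ± 0.32, the small heat shock proteins Hspb1 and Hspb8 by 2.48 ± 0.39 and 1.95 ± 0.32, and Slc10a4, a vesicular protein of cholinergic and monoaminergic neurons, by 2.39 ± 0.37. For all 5, the lines did not overlap in enrichment, as for all 96 genes with a higher call and 11.3% of tested genes.

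Markers of inhibitory neurons were lower in the Chat line. Among 14 tested GABAergic and glycinergic genes, 6 had a lower (0.44% of all tested genes) and none a higher enrichment. Of the 14, 13 were negative, and the median difference was -1.94. Their median enrichment was -1.82 in the Chat and 0.11 in the Snap25 line. In the Chat pulldowns the summed level of the list was 37.2, 20.9 and 40.5% of the mean input, and in the Snap25 pulldowns it was 157, 116 and 130%. Slc6a5, the glycine transporter of glycinergic terminals, fell from 494, 516 and 471 CPM in the Chat inputs to 101, 61.7 and 137 in the pulldowns, and measured 515, 375 and 389.7 and 855, 533 and 575 CPM in the Snap25 inputs and pulldowns. Every Chat pulldown was below all other libraries, and the difference was -2.92 ± 0.40 (adjusted p = 0.00551).

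Slc32a1 fell from 109, 101 and 73.9 to 30.03, 9.97 and 26.8 CPM in the Chat line and measured 122, 50.8 and 84.1 and 157, 93.3 and 249.99 CPM in the Snap25 line, whose libraries varied more. It differed by -3.04 ± 0.58 (adjusted p = 0.0147), with the call lost without PreIP_Chat replicate 2 or PreIP_Snap25 replicate 3. Pvalb, the calcium buffer parvalbumin, went opposite ways: it fell 3.08-fold in the Chat and rose 2.41-fold in the Snap25 line, a difference of -2.89 ± 0.48 (adjusted p = 0.00855). The GABA synthesizing enzymes Gad1 and Gad2 differed by -1.89 ± 0.32 (adjusted p = 0.00855) and -1.45 ± 0.31 (adjusted p = 0.0334), and Pax2, a transcription factor of inhibitory interneurons, by -2.41 ± 0.52 (adjusted p = 0.0364). Slc6a5, Pvalb and Gad1 kept their calls in all 12 fits without 1 library, while Gad2 and Pax2 kept theirs in 4.

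Among 13 glutamatergic genes, 1 had a lower enrichment (0.44% of tested genes), none a higher one, 12 were negative, and the median was -1.01. The called gene was Slc17a6, the vesicular glutamate transporter of most spinal excitatory neurons. It measured 82.2, 107 and 95.96 CPM in the Chat inputs, 28.3, 42.8 and 32.1 in the Chat pulldowns, 103, 84.7 and 89.9 in the Snap25 inputs and 188, 155 and 129 in the Snap25 pulldowns. It thus fell in the Chat and rose in the Snap25 line, with a difference of -2.23 ± 0.33 (adjusted p = 0.00551) that held without any 1 library.

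Transcription factors of spinal interneuron classes gave 3 lower calls among 17 (0.44% of tested genes), no higher one, and a median of -1.83. Of the 17, 13 had a negative and 4 a positive difference. Tal1, a factor of V2b interneurons, measured 0.371, 0.302 and 0.260 CPM in the Chat and 6.46, 9.88 and 3.97 CPM in the Snap25 pulldowns, and differed by -4.33 ± 0.76 (adjusted p = 0.00981). Dmrt3, a factor of dI6 interneurons, measured 0, 0.0756 and 0.416 and 5.80, 4.80 and 7.93 CPM. At such levels in the Chat pulldowns, 9 counts in all, the fitted difference of -5.34 ± 1.07 is imprecise (adjusted p = 0.0199). Pax8 differed by -1.84 ± 0.43 (adjusted p = 0.0496) and kept its call in 1 of the 12 fits without 1 library. The most abundant members without a call were Zfhx3 and Nfib. Zfhx3 fell in both lines and differed by -0.33 ± 0.35 (adjusted p = 0.804). Nfib went the other way, at 1.52 ± 0.43 (adjusted p = 0.109), with a fall called in the Snap25 line only.

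Hox genes, which pattern the cord from head to tail, had 3 lower calls among 26 (0.44% of tested genes), no higher one, and a median of -0.65. Of the 26, 20 had a negative and 6 a positive difference, the latter up to 2.16. Hoxc10, an abundant member, rose 1.73-fold in the Chat and 2.27-fold in the Snap25 line. It differed by -0.39 ± 0.37 (adjusted p = 0.776). Hoxb8 measured 159, 151 and 114 CPM in the Chat inputs, 55.1, 59.8 and 34.4 in the Chat pulldowns, 185, 161 and 107 in the Snap25 inputs and 251, 213 and 281 in the Snap25 pulldowns, a difference of -2.22 ± 0.38 (adjusted p = 0.00855). Hoxb9 and Hoxa9 differed by -2.05 ± 0.41 (adjusted p = 0.0201) and -1.69 ± 0.36 (adjusted p = 0.0334). Hoxb8 kept its call in all 12 fits without 1 library, Hoxb9 in 7 and Hoxa9 in 3.

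Transmitter receptors gave 2 lower calls among 34 (0.44% of tested genes) and no higher one, with a median of -0.31. Chrna4, a nicotinic acetylcholine receptor subunit, measured 34.1, 37.1 and 39.4 CPM in the Chat and 136, 149 and 219.9 CPM in the Snap25 pulldowns. It fell in the Chat and rose in the Snap25 line, with a difference of -2.41 ± 0.35 (adjusted p = 0.00551) in all 12 fits without 1 library. Chrm3, a muscarinic receptor, differed by -3.07 ± 0.70 (adjusted p = 0.0425) and was called in 2 of those fits. The receptor genes Chrna2, another nicotinic subunit, and Ghsr, the ghrelin receptor, named after their values were seen, were almost absent from the Chat pulldowns. Chrna2 had 1 count in all over the 3 Chat pulldowns against 1.54, 5.47 and 3.76 CPM in the Snap25 pulldowns, and Ghsr had 1 count against 4.11, 2.62 and 3.97 CPM. Both were called lower, and no fold is given at so few counts. Cckbr, a cholecystokinin receptor among the 12 named for their negative differences, measured 5.07, 1.13 and 3.23 CPM in the Chat and 25.2, 15.7 and 40.9 CPM in the Snap25 pulldowns and differed by -3.43 ± 0.62 (adjusted p = 0.0111).

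The other genes with the largest negative differences were measured above 5 CPM on average. Nrn1, neuritin, a small anchored protein that promotes neurite growth, fell from 103, 106 and 86.1 CPM in the Chat inputs to 19.2, 8.61 and 20.4 in the pulldowns, and measured 105, 98.7 and 103 and 219, 118 and 167 in the Snap25 inputs and pulldowns. Hapln1 fell from 21.6, 27.2 and 24.1 to 6.43, 2.27 and 4.63 CPM in the Chat line and measured 26.9, 30.9 and 33.8 and 70.01, 36.3 and 66.5 CPM in the Snap25 line. They differed by -3.33 ± 0.42 (adjusted p = 0.00389) and -3.35 ± 0.48 (adjusted p = 0.00551), and with Slc6a5 and Lamp5 they were the 4 genes called under each of the 26 other settings tried. Strip2, Kank4, Tekt5, Fbxo40, Slc27a2 and Epn3 differed by -3.66 ± 0.56, -3.33 ± 0.51, -3.25 ± 0.52, -4.20 ± 0.69, -3.07 ± 0.58 and -2.98 ± 0.62. The first 4 were called in all 12 fits without 1 library, Slc27a2 in 11 and Epn3 in 6.

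The called genes fell into patterns by what each line did on its own. Among the 96, 48 rose in the Chat line with no call in the Snap25 line, 27 rose in both, 11 rose in the Chat and fell in the Snap25 line, and 10 were called only as a fall in the Snap25 line. Among the 70, 48 fell in the Chat line with no call in the Snap25 line, 15 fell there and rose in the Snap25 line, 6 were called only as a rise in the Snap25 line, and 1 fell in both. For comparison, 12.6% of tested genes rose and 14.3% fell in the Chat line, and 9.69% rose and 12.7% fell in the Snap25 line. Enrichment in the Chat and Snap25 lines had medians of 2.47 and 0.29 over the 96 genes and of -1.67 and 0.77 over the 70. Each pattern describes calls against a threshold, and the difference between the lines is what was tested.

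The calls of some genes came with a call in the Snap25 line alone, and these genes are named after their values were seen. Dock5, a regulator of Rac, measured 63.4, 50.3 and 78.1 CPM in the Chat inputs and 66.6, 60.7 and 49.6 in the Chat pulldowns, but 64.03, 47.97 and 60.3 in the Snap25 inputs and 12.9, 10.4 and 6.81 in the Snap25 pulldowns. Only the Snap25 pulldowns stood apart, and the difference was 2.39 ± 0.38 (adjusted p = 0.00711). Klf7, a zinc finger factor of neurons, was alike, with 64.3, 68.5 and 70.1 CPM in the Chat and 19.2, 12.5 and 12.3 CPM in the Snap25 pulldowns and a difference of 2.34 ± 0.41 (adjusted p = 0.00981). The other 8 of these 10 genes were Rab29, Creb5, Tmod1, Gng12, Akap13, Heg1, Anxa5 and Nfia. In the opposite corner, Rpp25, a ribonuclease P subunit, had 29.2, 32.04 and 21.8 CPM in the Chat pulldowns, close to its 26.99, 22.8 and 24.2 in the inputs, and rose to 86.2, 165 and 89.7 from 25.6, 26.5 and 30.2 CPM in the Snap25 line. Its difference was -1.89 ± 0.38 (adjusted p = 0.0205), and Cd83, Nsg2, Cited1, Nt5dc2 and Nrsn2 had the same pattern. Erbb4, a neuregulin receptor, was the gene that fell in both lines, 6.61-fold in the Chat and 1.85-fold in the Snap25 line, with a difference of -1.84 ± 0.39 (adjusted p = 0.0316).

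**Figure D4:**
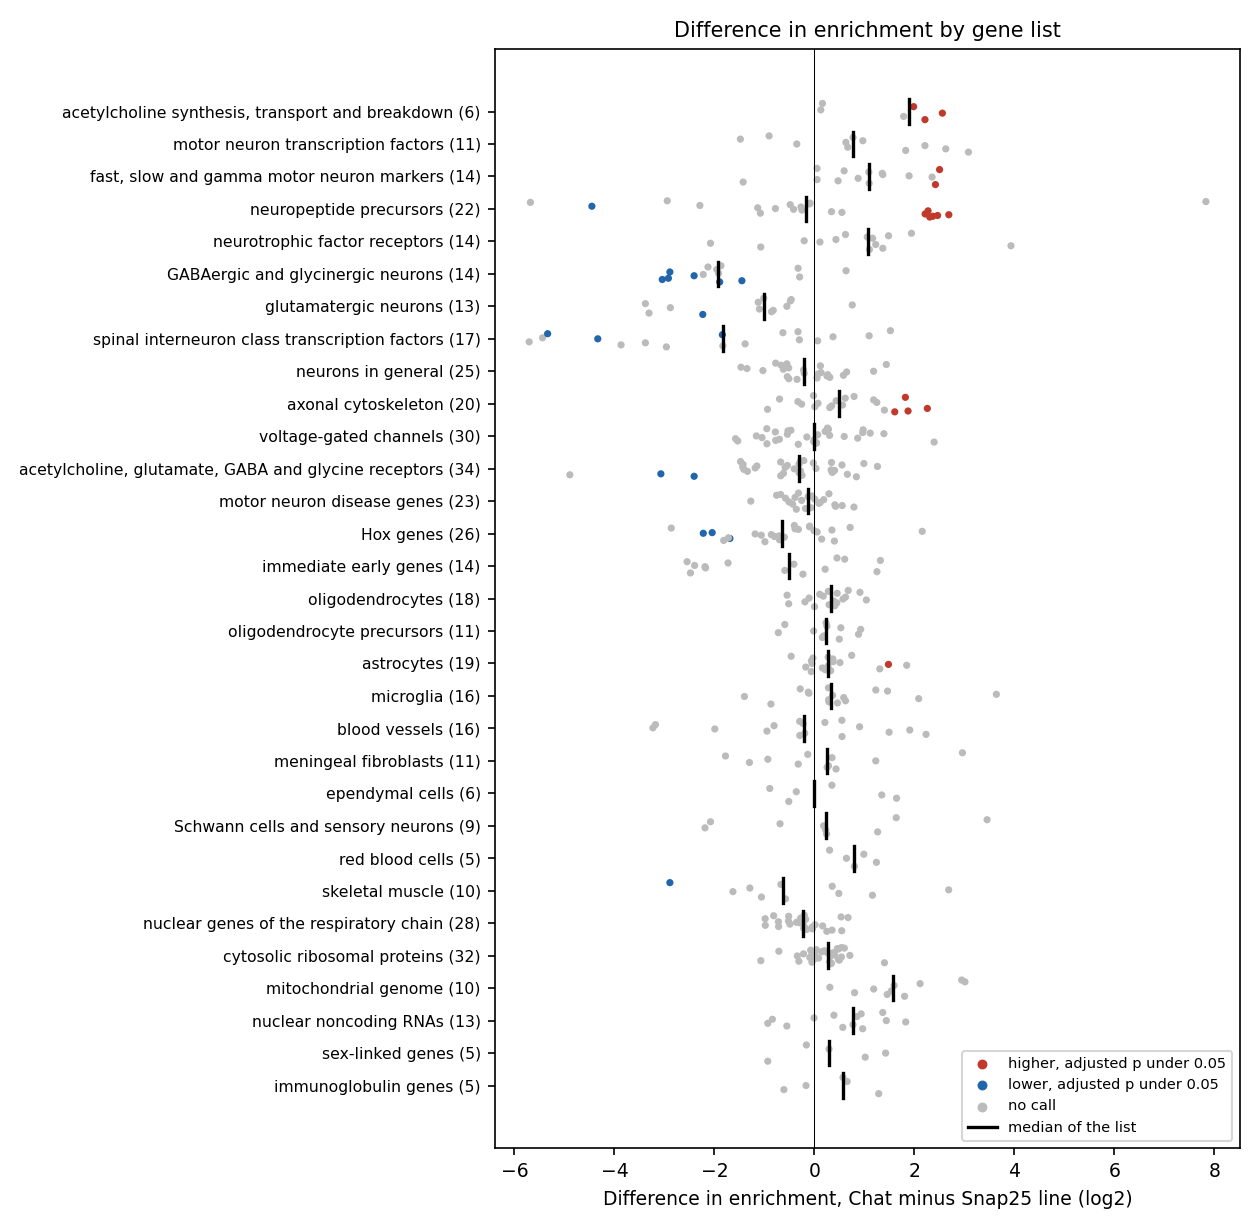
Difference in enrichment (Chat minus Snap25 line, log2) of the tested members of 31 gene lists, with the number tested in brackets, 1 point per gene and a black bar at the median of the list. Red points gather in the lists of acetylcholine handling, neuropeptides and the axonal cytoskeleton, and blue points in those of inhibitory neurons, interneuron transcription factors and Hox genes.

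For the 8 lists above with calls in 1 direction only, voom made no call in the other direction, and DESeq2 made 1, for a higher interneuron transcription factor, and 1 for a higher Hox gene. At an unadjusted p under 0.05 those directions held 1 gene each in the lists of motor neuron subtypes, interneuron transcription factors, the cytoskeleton, receptors and Hox genes, and none in those of acetylcholine, inhibitory and glutamatergic genes.

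Without TRAP_Chat replicate 1, the neuropeptide list had 4 higher and 2 lower calls, the inhibitory list 5 lower and the glutamatergic list 2 lower ones, and 1 Hox gene was called higher. Without TRAP_Snap25 replicate 3, there were 4 higher calls each for acetylcholine handling and motor neuron subtypes and 5 for the cytoskeleton, and 4 receptors and 2 interneuron transcription factors were called lower.

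Several neuronal lists showed no call with all 12 libraries. Without TRAP_Snap25 replicate 3, edgeR called 1 neurotrophic factor receptor higher and 1 gene of neurons in general lower, and without either that library or TRAP_Chat replicate 1 it called 1 voltage-gated channel lower. Genes of neurons in general had none in edgeR among 25, with 1 higher and 1 lower at an unadjusted p under 0.05, 1 and 1 by DESeq2, and 1 higher by voom. Snap25 was in that list. It measured 6096, 5903 and 6902 CPM in the Chat inputs and 6369, 7510.2 and 10709 in the Chat pulldowns, and 9066, 10576 and 8807 and 16530.2, 14983 and 15569 CPM in the Snap25 inputs and pulldowns, with a difference of -0.35 ± 0.37 (adjusted p = 0.803). In the same edgeR fit its pulldowns were called lower in the Chat line, by -0.94 (adjusted p = 0.0394). Its inputs were apart the same way, by -0.59 (unadjusted p = 0.0367), without a call. Rpl10a, the tagged subunit, differed by -1.07 ± 0.61 (adjusted p = 0.554) and was at most 9.59 CPM in any library. On its own, Rpl10a fell 2.34-fold in the Chat line (adjusted p = 0.0475) and was not called in the Snap25 line (adjusted p = 0.838). Of 30 voltage-gated channels, edgeR called none (4 higher and 5 lower at an unadjusted p under 0.05), DESeq2 called 1 higher and 2 lower, and voom 2 lower. Over all 15905 genes, the edgeR fit held 968 higher and 865 lower at that unadjusted threshold. None of 23 motor neuron disease genes was called by edgeR, DESeq2 or voom, with 1 lower at an unadjusted p under 0.05. None of 14 immediate early genes was called by edgeR (1 higher and 3 lower at an unadjusted p under 0.05), while DESeq2 called 2 lower and voom 1. The nearest in edgeR was Egr1 at -2.18 ± 0.52 (adjusted p = 0.0528).

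Markers of glia mostly fell in both lines. Over all tested genes, 1.04% were called between the lines, and at that share lists of this size hold few or no calls. Their lack of calls is thus no result about glia. All 18 oligodendrocyte genes fell in each line, with medians of -2.33 in the Chat and -2.66 in the Snap25 line, and none differed between the lines by edgeR, DESeq2 or voom, nor at an unadjusted p under 0.05. Precursors of oligodendrocytes (11), blood vessels (16), fibroblasts of the meninges (11), ependyma (6), Schwann cells with sensory neurons (9) and red blood cells (5) likewise gave no call with any of those tools. At an unadjusted p under 0.05 they gave 0, 1, 0, 0, 1 and 2 higher and 0, 1, 0, 0, 0 and 0 lower genes. Of 16 microglial genes, edgeR and voom called none, DESeq2 called 1 higher, and 2 were higher at an unadjusted p under 0.05. Their medians lay between -0.21 for vessels and 0.80 for red blood cells.

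Among 19 astrocyte genes, 1 was called. S100b, a calcium binding protein used as an astrocyte marker, rose in the Chat pulldowns to 1051, 829 and 928 CPM from 534, 382 and 564 and measured 367, 346 and 402 CPM in the Snap25 pulldowns, a difference of 1.48 ± 0.34 (adjusted p = 0.0464). Its call held in 1 of the 12 fits without 1 library and was lost without TRAP_Chat replicate 1. The enrichment of the astrocyte list had medians of -2.08 in the Chat and -2.37 in the Snap25 line, and 16 of 19 genes fell in each. Its summed CPM was 57.7, 44.1 and 48.0% of the mean input in the Chat and 28.7, 24.9 and 41.3% in the Snap25 pulldowns. S100b alone gave 1051, 829 and 928 of the summed 2648, 2022 and 2203 CPM in the Chat pulldowns. In the Snap25 pulldowns it gave 367, 346 and 402 of 1412, 1226 and 2038 CPM. The median enrichment of the list overlapped between the lines, at -1.60, -2.60 and -2.09 in the Chat and -2.44, -3.00 and -1.56 in the Snap25 pulldowns. In the skeletal muscle list, 1 of 10 was called lower, which was Pvalb, a member of the inhibitory list as well. Muscle genes had a median input difference of 2.40 between the lines, with no gene called in the inputs, and 1 library carried it. Acta1, skeletal muscle actin, measured 1.71, 114 and 7.25 CPM in the Chat and 13.2, 2.01 and 4.69 CPM in the Snap25 inputs, so that PreIP_Chat replicate 2 alone stood apart. Without that library, left out after the values were seen, the median input difference was -0.25, with 7 of 10 genes negative.

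Among organelle and nuclear RNA, the differences of mt-Rnr2 and Malat1 depended on TRAP_Chat replicate 1. All 10 tested genes of the mitochondrial genome were positive, with a median of 1.57, none was called by edgeR, DESeq2 or voom, and 2 were higher at an unadjusted p under 0.05. The Chat pulldowns held 22.2, 1.16 and 1.17% of their mean input level and the Snap25 pulldowns 1.53, 0.47 and 1.36%. For mt-Rnr2, the large mitochondrial ribosomal RNA, the difference was 2.95 ± 1.19 (adjusted p = 0.328), and it was -0.07 without TRAP_Chat replicate 1. Malat1, a nuclear noncoding RNA, went from 0.97 ± 1.02 (adjusted p = 0.804) to -0.22 without that library. Snhg11, of the same list as Malat1, differed by 1.44 ± 0.74 (adjusted p = 0.487). Its lines did not overlap in enrichment, as for 11.3% of tested genes in that direction. The 13 nuclear noncoding RNAs, 32 cytosolic ribosomal proteins and 28 nuclear genes of the respiratory chain gave no call with those 3 tools, with medians of 0.77, 0.28 and -0.22. At an unadjusted p under 0.05, 2 respiratory chain genes were lower and no other member of these 3 lists passed. Sex-linked genes (5 tested) and immunoglobulin genes (5 tested) gave no call with those 3 tools and none at an unadjusted p under 0.05.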

How the data were processed

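RNA of 12 mouse spinal cord libraries was amplified with the Nugen Ovation kit, per the labels' protocols, and the authors deposited 1 table of raw read counts per gene, with STAR and HTSeq named in the submitters' processing notes. The sources used here do not name their versions, the genome build, the annotation or the strand setting. The table's 41736 lines held 824 exact repeats, which were dropped, leaving 40912 gene IDs, and 15905 passed filterByExpr (defaults, with the 4 groups). All columns belong to the 12 samples. Counts were fitted in edgeR 4.0.16 (R 4.3.3) with TMM scaling, 1 mean per group and the quasi-likelihood test (glmQLFit, glmQLFTest), as (TRAP_Chat minus PreIP_Chat) minus (TRAP_Snap25 minus PreIP_Snap25). P-values are two-sided, with Benjamini-Hochberg adjustment over the 15905 genes and a threshold of 0.05, and CPM are TMM scaled.

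Named genes were Chat, Snap25 and Rpl10a, the 12 largest differences per direction among called genes of at least 5 mean CPM whose lines did not overlap (predicted genes left out), up to 3 called members per direction and up to 2 abundant uncalled members of each list, and genes whose inputs differed. A gene meeting this rule is left out of the text. Other genes were picked after their values were seen, as members of a list or a pattern. The comparison, the 31 lists (526 entries, from general knowledge) and the motifs were chosen with earlier results of these data known. The fit was tested on simulated counts with 200 changed genes among 15434, the changed ones of at least 5 mean CPM. Of these, 4-fold differences were recovered at 56% and 2-fold at 6%, and 3.125% of 64 calls were false. Counts were drawn independently for each gene and library. Shifts in the make-up of a whole library, as in TRAP_Chat replicate 1, were thus not simulated. Alternatives were other scalings and filters, DESeq2 1.42.0, limma 3.58.1 (voom, with and without weights), a replicate block, and leaving out libraries. Depth, from 10149346 to 20521699 counts, puts 3 counts at 0.146 to 0.296 CPM.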

Additional observations from a re-analysis of the deposited data

Results flagged for a closer look

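The effect of pulldown differed between the lines, by the test of that difference itself, for 96 genes with a higher and 70 genes with a lower enrichment in the Chat line. Of these, 26 were also called in opposite directions in the 2 lines, and their differences in enrichment are given here.

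Those that rose in the Chat and fell in the Snap25 line were Clic1 (3.97), S100a11 (3.52), Tnfsf12 (2.71), Sh3pxd2b (2.25), Abcg2 (2.10), Ccdc88c (2.08), Anks1 (2.04), Hist1h2bc (2.01) and Acadl (1.89), with Ttc22 (10.73) and Kif2c (9.34). Abcg2 is a drug efflux pump, Acadl an enzyme of fatty acid oxidation and Hist1h2bc a histone H2B gene with many close copies. Ttc22 and Kif2c had no count in any Snap25 pulldown, so their fitted values depend on the prior count and are no bounds. Kif2c, a mitotic kinesin, measured 4.02, 0.378 and 0.521 CPM in the Chat pulldowns, and Ttc22 measured 0.803, 3.78 and 0.156 CPM there, so 1 library held most of the counts of each.

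Those that fell in the Chat and rose in the Snap25 line were Fbxo40 (-4.20), Tekt5 (-3.25), Fgf3 (-2.89), Pvalb (-2.89), Lamp5 (-2.50), Chrna4 (-2.41), Slc17a6 (-2.23), Sncb (-2.15), Klhdc8a (-2.14), Prim2 (-2.14), Htr2c (-1.81), Rasgrf2 (-1.79), Hoxa9 (-1.69), Chd3os (-1.61) and Camk1g (-1.56). Lamp5, a lysosome associated membrane protein of neurons, measured 179, 152 and 129 CPM in the Chat inputs, 87.6, 72.5 and 64.2 in the Chat pulldowns, 157, 127 and 154 in the Snap25 inputs and 435, 414 and 362 in the Snap25 pulldowns. In each line the 3 pulldowns of Lamp5 did not overlap the 3 inputs. Sncb, beta synuclein, measured 62.7, 86.6 and 46.7 CPM in the Chat and 283, 193 and 304 CPM in the Snap25 pulldowns, opposite to its relative Sncg, which differed by 1.82 ± 0.36. Htr2c, a serotonin receptor, fell 2.20-fold and rose 1.59-fold.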

How the results depend on the processing

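Each of the 166 genes kept its direction under all 26 other settings in which it was tested. Other settings moved the counts from 96 higher and 70 lower genes: DESeq2 gave 292 and 209, no filter on low counts 269 and 184, and voom 113 and 106. RLE scaling, TMM without mitochondrial genes, weighted voom and a filter of 1 CPM in 3 libraries stayed within 1.5 times, at 103 to 110 higher and 69 to 84 lower. Leaving out 1 library gave 26 to 152 higher and 26 to 97 lower genes, lowest without PreIP_Chat replicate 2 and highest without TRAP_Snap25 replicate 3. Leaving out an input together with the pulldown of the same number gave 2 to 106 and 7 to 58, with 2 and 7 without Chat number 2, 3 and 11 without Chat number 3, and 15 and 16 without Snap25 number 1. Those are fits of fewer samples. Chat was not called in these last 3 fits (adjusted p = 0.106, 0.137 and 0.107) or without PreIP_Chat replicate 2, and its adjusted p over all 26 settings ran from 2.91e-05 to 0.137.

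The replicate block gave 118 higher and 88 lower genes, 86 and 65 of them shared. In the labels, the input and the pulldown of one number share a suffix in their descriptions, and Chat number 2 and Snap25 number 1 share the same suffix, but what a suffix stands for is not given in the sources used here. Correlations of the deviations of same-numbered input and pulldown were 0.060, 0.102 and 0.127 in the Chat and -0.037, 0.167 and 0.147 in the Snap25 line, and not every library correlated best with its own number. Of 21 uncalled genes followed over all settings, 5 changed sign in a fit without a library or a pair; other uncalled genes were not followed. They were Onecut2 (-0.0732, without the pair of Snap25 number 2, to 2.04), Ache (-0.21 to 0.72), mt-Rnr2 (-0.0717 to 3.63), Malat1 (-0.31 to 2.74) and Igf2 (-0.0284 to 1.91), the last 3 of them without TRAP_Chat replicate 1 (-0.07, -0.22 and -0.03) or without its pair (-0.00, -0.31 and -0.00). At this depth and spread, the smallest called difference was 1.25 on the log2 scale.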
